A study of Mus musculus with 6 samples.

Results

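miR-21a is a mouse miRNA whose precursor gives a pair of mature strands, the guide strand miR-21a-5p and the passenger strand miR-21a-3p. The members described here are the rows of those 2 arms in a table of 1506 miRNAs (1198 known and 308 predicted). They were chosen by name, with earlier results of these data known. Both arms were above 0 in all 6 libraries, and both passed the filter on low values that left 607 miRNAs for testing. The libraries were small RNA libraries of primary cortical OPCs, the oligodendrocyte progenitor cells that mature into the myelin-forming OLs. The cells came from newborn wild-type C57BL/6 mice, with no deletion or transgene in any group. Of the libraries, 3 were untreated (labelled control, with vehicle in the study's methods) and 3 were given fibrinogen (2.5 mg/mL), a plasma protein that forms clots. OPCs were released from mixed glial flasks by shaking, after an earlier shaking step to remove microglia, and the duration of the fibrinogen treatment was not given for the sequenced cells in the sources used here. The headers of the deposited table number the libraries by mouse, 1 to 3 in each group. Whether mice with the same number are the same animals in both groups was not given in the sources used here, nor whether pups were pooled, and p-values measure the spread between these libraries.

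miR-21 is known as one of the miRNAs that rise in inflammation, fibrosis and tissue injury. In human vascular smooth muscle cells, SMAD proteins that are activated by BMP or TGF-beta bind the stem of the primary miR-21 transcript and promote its cropping by Drosha to the precursor. Dicer then cuts the precursor into a duplex, one strand of which is loaded into Argonaute while the other is mostly degraded. The study was concerned with BMP signaling through its receptor ACVR1 in OPCs exposed to fibrinogen, so the arms of miR-21a in these libraries bear on whether a miRNA with such processing differed after fibrinogen treatment. Only mature miRNAs were measured. The primary transcript and the precursor were not analysed here, so transcription, cropping, dicing and decay cannot be told apart.

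The sequences of the 2 arms are shown with their paralogs, because reads of near-identical miRNAs could be shared. Capitals mark the seed, bases 2 to 8, which pairs with target mRNAs.
miR-21a-5p: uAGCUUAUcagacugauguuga
miR-21a-3p: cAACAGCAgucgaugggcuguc
miR-21b: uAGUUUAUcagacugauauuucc
miR-21c: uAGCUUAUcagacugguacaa
These sequences were taken from RefSeq (GRCm38.p6), in which miR-21a-5p lies at chr11:86584120-86584141 and miR-21a-3p at chr11:86584082-86584103, both on the minus strand. miR-21b was identical to miR-21a-5p at 18 of 22 bases, counted from the 5′ end, and first differed at base 4, inside the seed. miR-21c was identical at 16 of 21 bases, first differed at base 16 and had the same seed. The table used here has no row for miR-21b or miR-21c, and how reads that match both miR-21a-5p and a paralog were assigned was not given in the sources used here. The value of miR-21a-5p could therefore include such reads. In the RefSeq table miR-21c was the only other miRNA with the seed of miR-21a-5p, and none shared the seed of miR-21a-3p.

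The precursor Mir21a has 92 bases, with miR-21a-5p at bases 18 to 39 and miR-21a-3p at bases 56 to 77. On GRCm39 it lies on chromosome 11 from 86474893 to 86474984, on the minus strand, inside the last exon and the 3′ UTR of Vmp1 on the same strand. Vmp1 encodes a membrane protein of the endoplasmic reticulum that acts in autophagy. SMADs are known to recognise the letters CAGAC, or GUCUG on the other strand, and both stand in the precursor. They are shown in capitals.
CAGAC in miR-21a-5p: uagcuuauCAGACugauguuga
GUCUG in the 3′ stem: ugggcuGUCUGaca
CAGAC occupied bases 26 to 30 of the precursor, which are bases 9 to 13 of miR-21a-5p, directly after the seed. GUCUG occupied bases 75 to 79, across the 3′ end of miR-21a-3p. In the fold predicted by RNAfold, of -46.2 kcal/mol, 19 bases of miR-21a-5p were paired with miR-21a-3p and 0 bases of CAGAC were paired with GUCUG. Of 1005 mouse precursors in the RefSeq table, 7.96% held CAGAC, 14.2% held GUCUG, 20.4% held either and 1.79% held both, counting the precursor strand only. A match is a description of the letters and not a site of binding.

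The libraries held 11897645 to 14847034 reads, and 937 to 1031 miRNAs were above 0 in a library. The authors called the values TPM, and they were RPM, which scale for depth and not for length, so that 1 read was worth 0.0669 to 0.0841 TPM. A miRNA at 0 reads could still have had up to 3 reads, or 0.201 to 0.252 TPM. These limits, and the Poisson and Clopper-Pearson intervals given here, cover counting error only, while limma's intervals rest on the spread between libraries. The 4 miRNAs fixed as markers of OPCs and OLs summed to 12241 to 16643 TPM without fibrinogen and 11450 to 14332 TPM with it, while the 4 miRNAs fixed for neurons summed to 115258 to 122575 and 91467 to 96834 TPM. The libraries thus held the miRNAs fixed for OPCs and OLs and, at higher levels, those fixed for neurons. Members of either list need not be exclusive to its cell type, so the sums do not show which cells were present. Within the OPC and OL list, 2 log2 fold changes with fibrinogen were above 0 and 2 below. They ran from 0.91 for miR-219a-2-3p (limma, adjusted p = 0.0836) to -0.16 for miR-338-3p (adjusted p = 0.587). Within the neuron list all 4 were below 0, from -0.49 for miR-128-3p (limma, adjusted p = 0.041) to -0.035 for miR-124-3p (adjusted p = 0.921). miR-138-5p and miR-128-3p made the largest parts of the 2 sums. In cultures of mixed cells, fewer cells of a type and less RNA per cell cannot be told apart.

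miR-21a-5p, the arm that represses targets, was an abundant miRNA in these OPC cultures, and its levels in untreated and fibrinogen-treated libraries overlapped. It stood at 3194, 3180 and 4092 TPM in untreated OPCs and at 3356, 2780 and 2240 TPM in fibrinogen-treated OPCs. The highest value was untreated 3 and the lowest was fibrinogen 3, while fibrinogen 1 lay above untreated 1 and 2. These levels came from 27516 to 61195 reads, or 0.227% to 0.412% of the reads of a library, and placed miR-21a-5p at ranks 29 to 40 among the miRNAs of its library.

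miR-21a-5p averaged 3489 ± 523 TPM without fibrinogen and 2792 ± 558 TPM with fibrinogen (SD, n = 3 per group), 1.25-fold higher in untreated OPCs. The log2 fold change on the log2(TPM + 1) scale, fibrinogen over untreated, was -0.33 with a standard error of 0.17 and a 95% interval of -0.74 to 0.08. It did not pass the threshold of an adjusted p of 0.05 (limma, p = 0.0988, adjusted p = 0.279 over 607 miRNAs, and p = 0.3 in the exact two-sided permutation test). With 3 against 3 libraries, 0.1 is the smallest p that the permutation test allows. Leaving out 1 library made it smaller, at -0.21 without untreated 3 and -0.18 without fibrinogen 3, and larger at most at -0.47 without fibrinogen 1. No rise of miR-21a-5p was detected, and the interval holds no rise above 0.08 on the log2 scale. Over all 607 miRNAs the log2 fold changes had a median of 0.13, and that of miR-21a-5p ranked 69 from the lowest.

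miR-21a-3p, the passenger arm, was rare, and all 3 fibrinogen-treated libraries were below all 3 untreated libraries. It stood at 3.40, 2.44 and 11.4 TPM in untreated OPCs and at 1.94, 1.58 and 1.47 TPM in fibrinogen-treated OPCs. Untreated 3 stood apart, 3.91-fold above the mean of untreated 1 and 2, where miR-21a-5p in the same library was 1.28-fold above. The fibrinogen-treated libraries differed little from each other, at 1.32-fold between the highest and the lowest.

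The reads behind miR-21a-3p were few. Untreated OPCs had 43 (exact Poisson 95% interval 31.1 to 57.9), 29 (19.4 to 41.6) and 171 (146 to 199) reads. Fibrinogen-treated OPCs had 26 (17.0 to 38.1), 22 (13.8 to 33.3) and 18 (10.7 to 28.4). The interval of untreated 3 lay apart from all others. The interval of untreated 1 lay above that of fibrinogen 3, and on the TPM scale (2.46 to 4.59 TPM) above those of fibrinogen 2 and 3. The interval of untreated 2 overlapped those of all 3 fibrinogen-treated libraries. Of 243 reads pooled over untreated OPCs, untreated 3 thus held most, against 66 reads pooled over fibrinogen-treated OPCs.

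miR-21a-3p averaged 5.76 ± 4.94 TPM without fibrinogen and 1.66 ± 0.248 TPM with fibrinogen (SD, n = 3 per group), 3.46-fold higher in untreated OPCs, and 1.76-fold higher without untreated 3. The log2 fold change was -1.11 on the log2(TPM + 1) scale, which understates the change of rare miRNAs, with a standard error of 0.45 and a 95% interval of -2.18 to -0.04. It did not pass the threshold (limma, p = 0.0441, adjusted p = 0.184), and the exact permutation test gave p = 0.1, the smallest possible. Without untreated 3 the log2 fold change was -0.55 (limma, adjusted p = 0.14). Among the 607 miRNAs, 53 (8.73%) had all fibrinogen-treated libraries below all untreated libraries, so the order of the libraries is not particular to miR-21a-3p. By log2 fold change miR-21a-3p ranked 13 from the lowest.

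**Figure D1:**
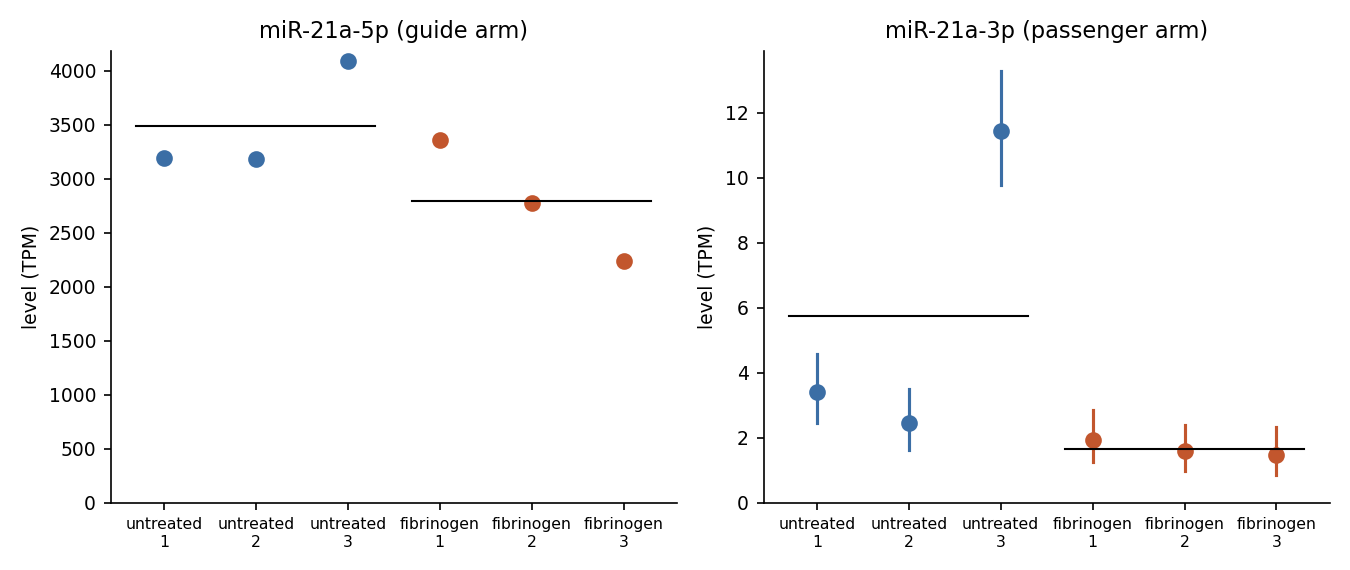
Levels of miR-21a-5p (left) and miR-21a-3p (right) in TPM in each untreated (blue) and fibrinogen-treated (orange) library, on separate linear axes that start at 0. Points are single libraries, black lines are group means, and vertical lines for miR-21a-3p are exact Poisson 95% intervals of its reads. miR-21a-5p overlaps between the groups, and untreated 3 holds the highest value of both arms.

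Arms of 1 precursor were compared within each library. Scaling between libraries cancels in ratios of reads, but not fully in ratios on the log2(TPM + 1) scale. miR-21a-3p made up a small share of the reads of both arms in every library, and untreated 3 again stood apart. The share was 0.106% (exact Clopper-Pearson 95% interval 0.0771% to 0.143%), 0.0766% (0.0513% to 0.110%) and 0.279% (0.239% to 0.324%) in untreated OPCs. It was 0.0578% (0.0378% to 0.0847%), 0.0569% (0.0356% to 0.0861%) and 0.0654% (0.0387% to 0.103%) in fibrinogen-treated OPCs. All fibrinogen-treated libraries were below all untreated libraries, but the intervals of untreated 1 and 2 overlapped those of the fibrinogen-treated libraries.

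The same reads gave 938, 1304 and 358 reads of miR-21a-5p for each read of miR-21a-3p in untreated OPCs. Fibrinogen-treated OPCs had 1729, 1758 and 1529. The means were 867 ± 477 and 1672 ± 125 (SD, n = 3 each, exact permutation test, two-sided, p = 0.1), with no overlap. Among 162 precursors with 2 tested arms, 46 (28.4%) had arm ratios of reads with no overlap between the groups, in either direction.

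On the log2(TPM + 1) scale the 5p over 3p ratio of miR-21a was 9.50, 9.85 and 8.36 in untreated and 10.16, 10.07 and 9.83 in fibrinogen-treated OPCs. On this scale the groups overlapped, because fibrinogen 3 lay just below untreated 2. The shift toward miR-21a-5p was 0.78 with a standard error of 0.34 and a 95% interval of 0.01 to 1.55. It did not pass the threshold over the 162 precursors (limma, p = 0.0485, adjusted p = 0.296; exact permutation test, p = 0.2), of which 4 (2.47%) did. Without untreated 3 the shift was 0.34 (limma, adjusted p = 0.317), and with a pseudocount of 5 in place of 1 it was 0.27 (adjusted p = 0.524). On recovered reads with 0.5 read added to each arm, the shift was 1.12 (adjusted p = 0.248), and 0.58 without untreated 3 (adjusted p = 0.254).

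miR-21a was among the most one-sided precursors in these OPC cultures. By the mean log2 ratio of the reads of its arms, 10.1, it ranked 3 of 162 from the 5p end and 5 by the size of the ratio in either direction, where the median size of the log2 ratio was 3.77 and 89 precursors had more reads from the 5p arm. Its shift was the fourth highest of the 162 and ranked 9 by size, against a median shift of -0.06 and a median size of 0.27. The precursors with the most similar arm ratios were miR-26b, miR-34a, miR-7b, let-7g and miR-125a, with mean log2 ratios of 8.54 to 10.3. Their shifts ran from -0.50 for miR-125a to -0.08 for miR-7b, and none passed the threshold (limma, adjusted p = 0.327 to 0.83).

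**Figure D2:**
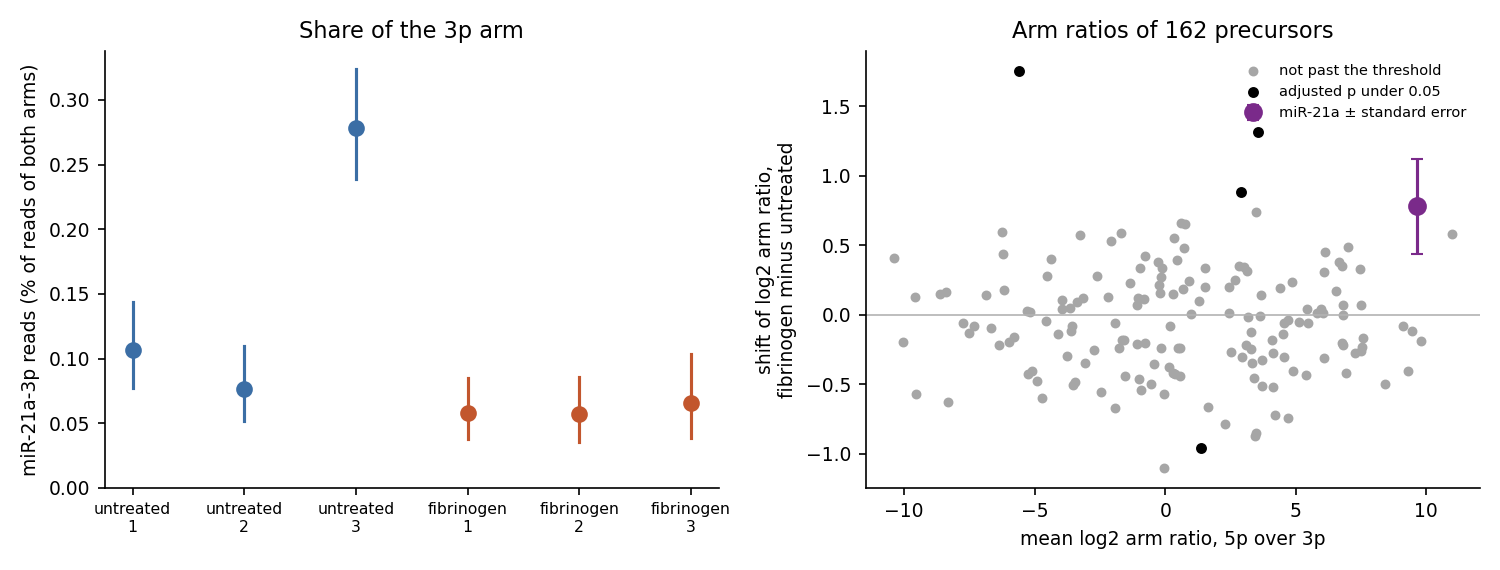
Left, reads of miR-21a-3p as a percentage of the reads of both miR-21a arms in each library, with exact Clopper-Pearson 95% intervals. Right, the shift of the log2(TPM + 1) arm ratio with fibrinogen against the mean arm ratio for 162 precursors, with the 4 past an adjusted p of 0.05 in black and miR-21a in purple with its standard error. Untreated 3 has the highest share, 0.279%, and the shift of miR-21a is 0.78.

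Against all miRNAs, 13 of 607 (2.14%) rose and 4 (0.659%) fell with fibrinogen at a limma adjusted p under 0.05. Neither arm of miR-21a was among them. At an unadjusted p under 0.05, 122 (20.1%) were higher and 34 (5.6%) were lower. edgeR called 8 (1.32%) higher and 4 (0.659%) lower, and DESeq2 called 27 (5.67%) higher and 37 (7.77%) lower of the 476 to which it gave an adjusted p. Further miRNAs whose processing SMADs promote in human cells were described beside it. They come from miR-199a, miR-105, miR-215, miR-421 and miR-509. Of 11 such arms, the miR-21a arms included, 7 were listed, 6 were tested, and 0 rose and 0 fell by limma or edgeR. At an unadjusted limma p under 0.05, 0 were higher and 1 was lower, miR-21a-3p, which was also the 1 that DESeq2 called. Their log2 fold changes were above 0 for 3 and below 0 for 3, with a median of -0.13, where all 607 miRNAs had 0.13. Median-of-ratios scaling, which brought the median of all miRNAs to 0.0031, gave 2 above and 4 below 0.

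miR-199a-3p, enriched in mesenchymal cells and known to restrain growth signaling, stood at 226.6, 231.5 and 408.6 TPM in untreated and at 424.8, 335.1 and 487.5 TPM in fibrinogen-treated libraries. Untreated 3 lay above fibrinogen 2, so the groups overlapped. The log2 fold change was 0.56 (standard error 0.26, limma adjusted p = 0.21), and without untreated 3 it was 0.84 and passed (adjusted p = 0.0447). That was the only 1 of 19 alternatives in which it passed, and they ran from 0.32 to 0.84. Mature miR-199a-3p has the same sequence as miR-199b-3p, so its level is uncertain. The 4 miRNAs fixed as mesenchymal and mural markers, one of which is miR-199a-5p, summed to 2193 to 2614 TPM without fibrinogen and 2848 to 3903 TPM with it, and the part of such cells in the value of miR-199a-3p was not tested.

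The other arm, miR-199a-5p, had a log2 fold change of 0.45 (standard error 0.34, limma adjusted p = 0.418), which ran from 0.12 without untreated 1 to 0.70 without untreated 3. Those of miR-421-3p and miR-421-5p were 0.07 and -0.41 (adjusted p = 0.822 and 0.395). For the rare miR-421-5p it ran from -0.15 without fibrinogen 1 to -0.72 without fibrinogen 2. The sign for miR-421-3p was not stable, since it was -0.06 after median-of-ratios scaling. miR-215-5p averaged 0.533 TPM without and 0.322 TPM with fibrinogen and was below the filter.

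**Figure D3:**
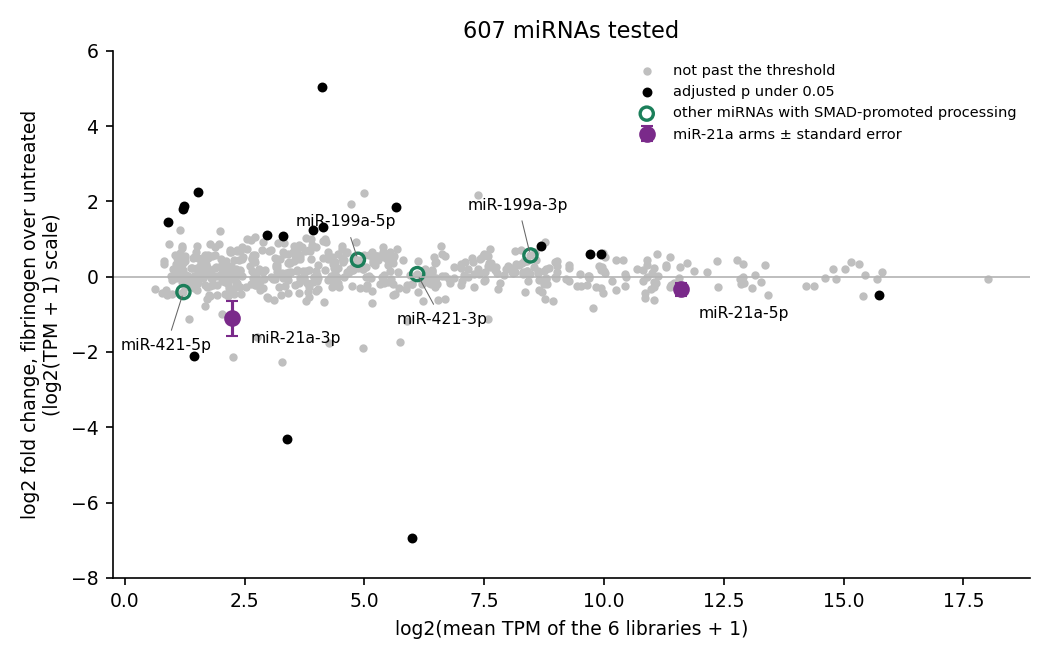
The log2 fold change with fibrinogen against the log2 mean level of 607 miRNAs, both on the log2(TPM + 1) scale. Black points passed an adjusted p of 0.05, purple points are the miR-21a arms with standard errors, and green rings are the other tested miRNAs with SMAD-promoted processing. Both arms of miR-21a lie below 0, at -0.33 and -1.11, among the miRNAs that did not pass.

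The precursor letters were also read across miRNAs. Of 417 known tested miRNAs with a precursor in the RefSeq table, 78 (18.7%) came from a precursor with CAGAC or GUCUG. Of these, 0 rose and 1 fell by limma, against 23 higher and 2 lower at an unadjusted p under 0.05. Their log2 fold changes were above 0 for 59 and below 0 for 19, with a median of 0.21, and both arms of miR-21a were among the 19. Of the 339 with neither, 7 rose and 0 fell (66 higher and 26 lower at an unadjusted p under 0.05), and 204 were above 0 and 135 below, with a median of 0.10. After median-of-ratios scaling the splits were 50 to 28 and 160 to 179, with medians of 0.10 and -0.02. edgeR called 0 higher and 1 lower with the letters and 2 and 0 without, and DESeq2 called 2 and 3 with and 16 and 29 without. DESeq2 gave no adjusted p to 13 of the 78 with the letters and 64 of the 339 without, and the sets differ in size. No difference between the 2 sets was tested. Only 8 of the miRNAs came from a precursor with both CAGAC and GUCUG, as Mir21a has.

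The 4 most abundant miRNAs with the letters differed in direction. miR-128-3p, enriched in neurons, had a log2 fold change of -0.49 (standard error 0.09, limma adjusted p = 0.041), and it was called by edgeR and DESeq2 too. With any 1 library left out the value was -0.55 to -0.43 and no longer passed (adjusted p = 0.0507 to 0.181). miR-29c-3p, which represses collagens, had -0.26 (adjusted p = 0.208), and -0.17 without untreated 3, while DESeq2 called it at -0.41 (adjusted p = 0.0404). miR-7a-5p, abundant in neuroendocrine cells, had -0.48 (adjusted p = 0.281), which ran from -0.19 without fibrinogen 1 to -0.73 without fibrinogen 3. It passed at -0.55 (adjusted p = 0.0454) in a fit that blocked on the library number and removed the trend with the GC content of the precursor. miR-127-3p, from an imprinted cluster, had 0.33 (adjusted p = 0.168), and 0.037 with the GC trend removed.

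miRNAs known to rise with inflammation or injury, as miR-21 does, were counted in the same fit. All 9 were tested, and 0 rose and 0 fell by limma, edgeR or DESeq2. At an unadjusted limma p under 0.05, 2 were higher and 1 was lower. Of all 607 miRNAs, 2.14% rose and 0.659% fell by limma, and 20.1% were higher and 5.6% lower at the unadjusted p. The log2 fold changes of the 9 had a median of 0.12, where all miRNAs had 0.13. Of these, 6 were above 0 and 3 below, and 4 and 5 after median-of-ratios scaling. The ends of the range were 0.61 for miR-31-5p (limma, adjusted p = 0.12) and -0.49 for miR-155-5p, a miRNA of activated immune cells (adjusted p = 0.168). For miR-132-3p, which responds to neuronal activity, the log2 fold change was 0.25 (adjusted p = 0.317), and -0.054 with the GC trend removed. For miR-34a-5p, a target of p53, it was -0.15 (adjusted p = 0.729), and 0.14 without fibrinogen 3.

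The miRNAs whose levels followed those of miR-21a-5p most closely were sought among 333 known miRNAs of at least 10 TPM. Likeness was the root-mean-square difference of log2(TPM + 1) values, each centred on its mean over the 6 libraries, and the median over the 333 was 0.378. The nearest was miR-126a-5p at 0.096, followed by miR-30e-5p at 0.122, miR-101a-3p at 0.131, miR-30a-5p at 0.142 and miR-142a-5p at 0.146. These profiles share the libraries and their totals, so likeness is a description.

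miR-126a-5p, from a miRNA typical of endothelium, stood at 2399, 2769 and 3476 TPM in untreated and at 2887, 2469 and 2094 TPM in fibrinogen-treated OPCs. As for miR-21a-5p, untreated 3 was the highest and fibrinogen 3 the lowest library. The other arm, miR-126a-3p, stood at 8231, 8355 and 10625 TPM in untreated and at 10441, 8824 and 8505 TPM in fibrinogen-treated OPCs. There untreated 3 was again the highest library, but untreated 1 was the lowest. The log2 fold change of miR-126a-3p was 0.03 (limma, adjusted p = 0.904), and that of miR-126a-5p was -0.21 (adjusted p = 0.458). The ratio of miR-21a-5p to miR-126a-5p was 1.33, 1.148 and 1.18 in untreated OPCs and 1.16, 1.13 and 1.07 in fibrinogen-treated OPCs. Both arms of miR-126a, the endothelial markers, summed to 10630 to 14101 TPM without fibrinogen and 10599 to 13328 TPM with it, while the 6 miRNAs of microglia and other immune cells summed to 1766 to 2479 and 1748 to 2073 TPM. Of these 6 miRNAs, 2 had a log2 fold change above 0 and 4 below, from 0.70 for miR-150-5p to -0.49 for miR-155-5p, with miR-142a-3p at -0.45. The part of either cell type in the level of miR-21a-5p was not tested.

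No known miRNA of at least 10 TPM followed miR-21a-3p so closely. As miR-21a-3p itself averaged 3.71 TPM, miRNAs of its own level were not searched. Its centred value of 1.67 in untreated 3 also enters each of these differences. Among 334 miRNAs the nearest was miR-342-3p at 0.593, and the fifth, miR-223-3p, was at 0.608, where the median was 0.871. The guide arm miR-21a-5p ranked 3, at 0.603, after miR-873a-5p at 0.601, and miR-544-5p followed at 0.605. The values of these 5 were too similar to be ordered, and in each of them untreated 3 stood less far above its group than in miR-21a-3p. The 3 miRNAs fixed as erythroid markers summed to 398.8, 594.4 and 166.9 TPM in untreated OPCs and to 168.7, 146.2 and 171.1 TPM after fibrinogen. Most of the sum was miR-451a and miR-144-3p, while miR-486a-5p had a log2 fold change of 0.20 (limma, adjusted p = 0.715). The part of such cells in the level of miR-21a-3p was not tested.

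**Figure D4:**
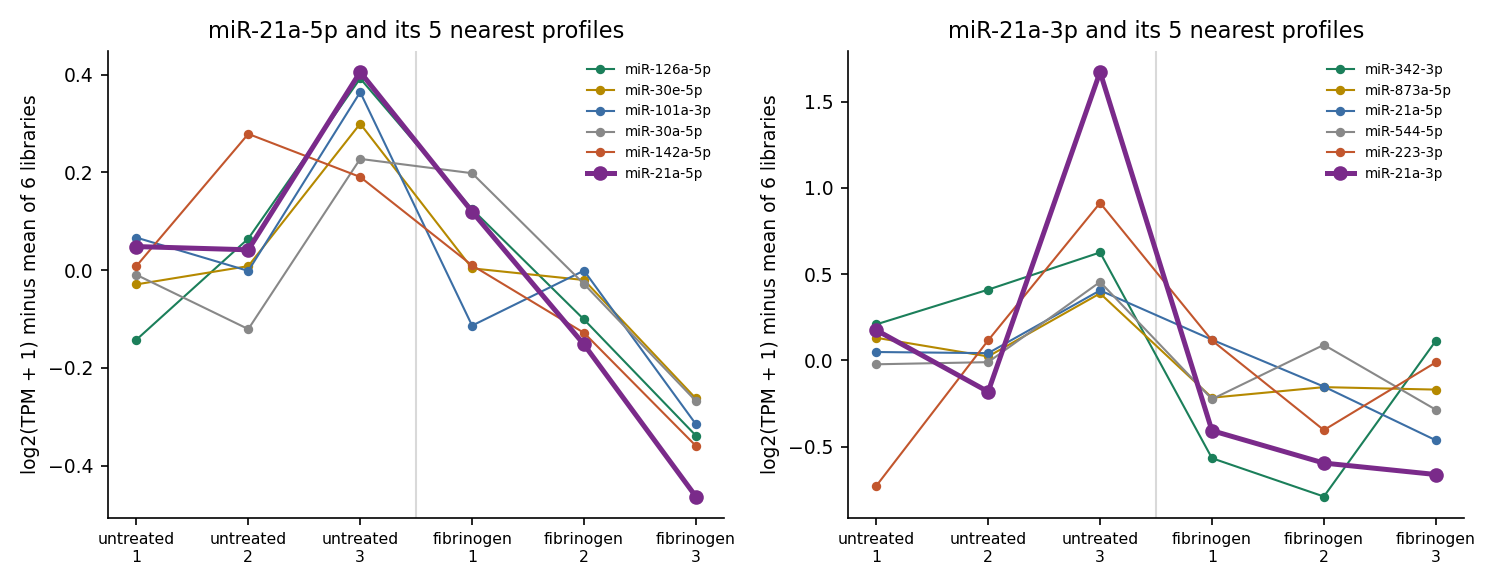
Centred log2(TPM + 1) values of miR-21a-5p (left) and miR-21a-3p (right) in purple over the 6 libraries. Beside each are the 5 nearest profiles among known miRNAs of at least 10 TPM. Lines join the points of 1 miRNA and imply no order of libraries. miR-126a-5p runs close to miR-21a-5p, at a difference of 0.096, while the nearest profile to miR-21a-3p differs by 0.593.

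The direction of the 3 miR-21a values was the same under every alternative run, and few alternatives brought a value past the threshold. The log2 fold change of miR-21a-5p ran from -0.47 to -0.06 over 21 alternatives and passed in 0, although its unadjusted p was 0.0365 with edgeR and 0.0136 with DESeq2. That of miR-21a-3p was below 0 in 19 alternatives and passed in 2. These were DESeq2 on recovered reads with -1.92 (adjusted p = 0.0367) and a limma fit with -1.16 (adjusted p = 0.00395). That fit blocked on the replicate number and removed the trend with the GC content of the precursor, which is the same for both arms. With DESeq2 without untreated 3, miR-21a-3p was at -1.002 (unadjusted p = 0.0804, with no adjusted p given by the tool). The arm ratio was above 0 in 18 alternatives and passed in 1, the replicate block with 0.78 (limma, adjusted p = 0.0185), where it was 0.44 without library 3 of both groups (adjusted p = 0.432).

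**Figure D5:**
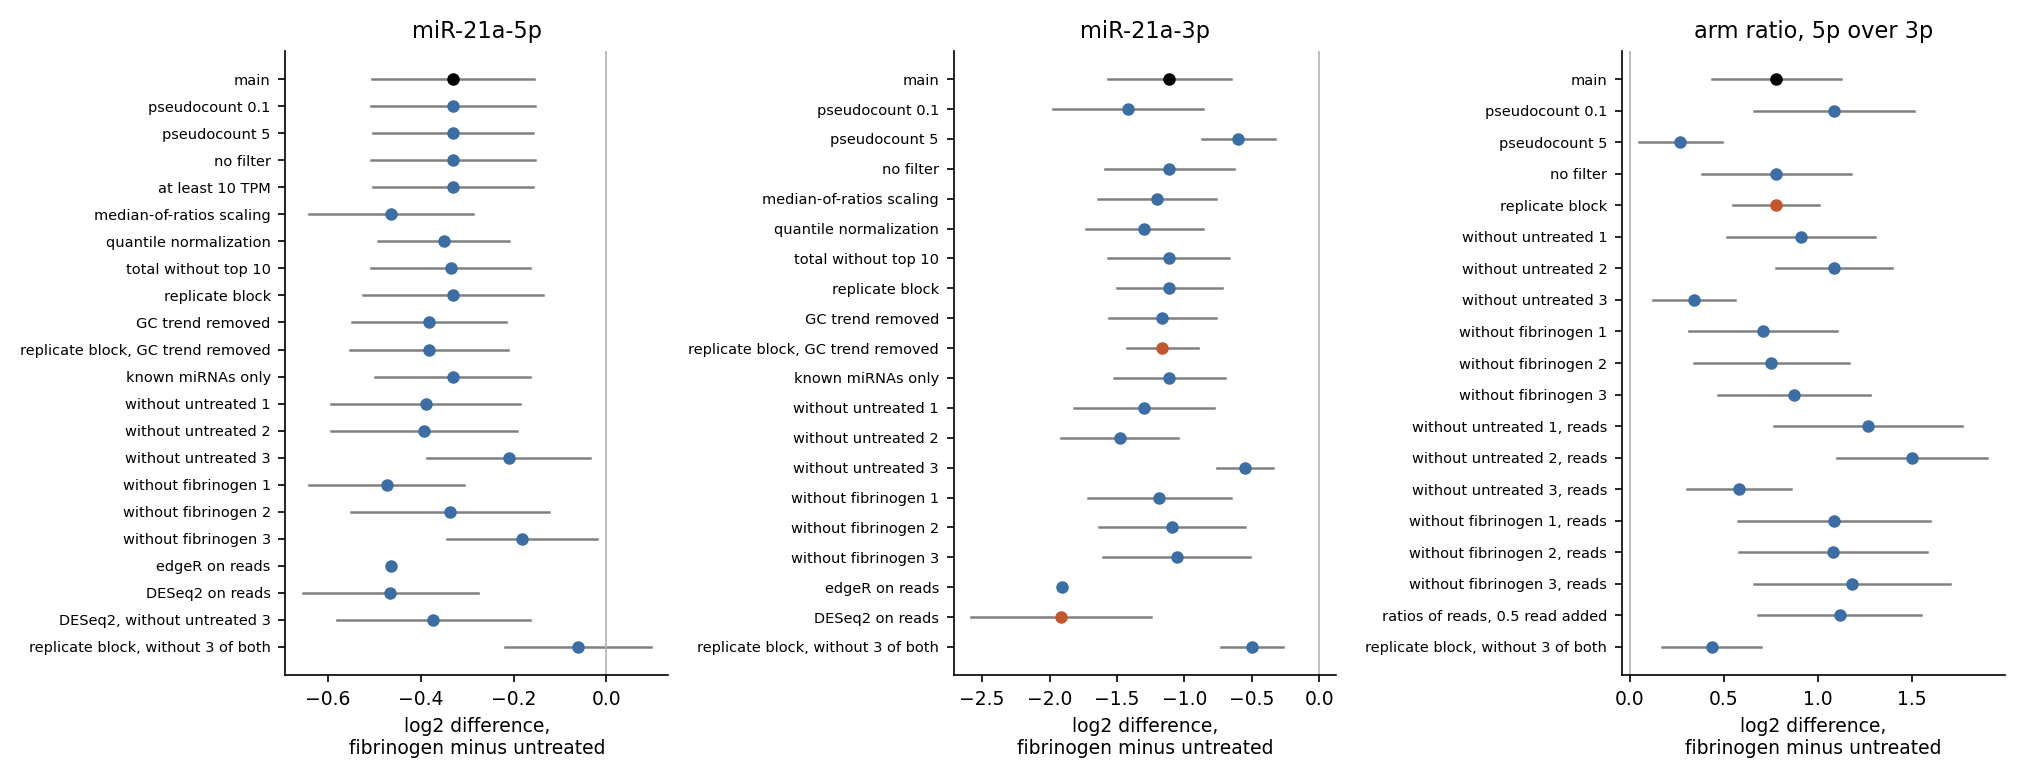
The log2 difference, fibrinogen minus untreated, of miR-21a-5p, miR-21a-3p and their arm ratio as reported (black) and under each alternative (blue, or orange where the adjusted p is under 0.05). Lines are standard errors, which edgeR does not give. Every value of miR-21a-5p and miR-21a-3p is below 0 and every arm ratio is above 0, and leaving out untreated 3 brings miR-21a-3p to -0.55 and the arm ratio to 0.34.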

How the data were processed

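Small RNA of 6 OPC samples was sequenced with a kit that lets duplicates be removed. The authors trimmed reads with cutadapt 1.15, removed duplicates, mapped with Bowtie 1.1.2 and quantified miRNAs of miRBase with miRDeep2. The methods name GRCm39 and the labels mm10, and no coordinates of the authors were used. The deposited TPM values were RPM, that is, whole reads over a library total, and dividing by the value of 1 read gave whole numbers within 0.1 for 99.8% to 100% of values. Recovered reads summed to 11897645 to 14847034 in a library, of which 65.5% to 68.5% came from the 10 most abundant miRNAs. The values of a library summed to 992890 to 1007870 TPM without fibrinogen and 972508 to 986727 TPM with it. The totals used as divisors were therefore not exactly the sums of recovered reads. The authors compared groups with edgeR 3.12.1.

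Groups followed the treatment label. log2(TPM + 1) values of the 607 miRNAs that reached 1 TPM in 3 or more libraries were compared with limma 3.58.1 (R 4.3.3, trended), with Benjamini-Hochberg adjustment and a threshold of 0.05. Arm ratios were fitted likewise over 162 precursors. Single values were tested by exact two-sided permutation. Precursors were folded with RNAfold 2.7.2. Scripts were tested on simulated data. Alternatives were pseudocounts of 0.1 and 5, other filters, scalings and totals, removal of a GC trend, a replicate block, leaving out each library, and edgeR 4.0.16 and DESeq2 1.42.0 on recovered reads. The GC trend was that with the GC content of the precursor and not of the mature miRNA. The members and lists were chosen with earlier results of these data known. Named miRNAs were the members, their nearest profiles and arm ratios, and up to 4 of the most abundant in each list, beside the ends of a range, further SMAD-list arms and the libraries' highest miRNAs, which were named after their values were seen.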

Additional observations from a re-analysis of the deposited data

How the results depend on the processing

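The miR-21a values kept their direction under every alternative run. With 1 library left out (in some fits 1 of each group), miR-21a-5p ran from -0.47 to -0.06, miR-21a-3p from -1.48 to -0.50 and the arm ratio from 0.34 to 1.503, with the lowest sizes of the last 2 in fits that lacked untreated 3. The replicate block took the arm ratio of 0.78 past the threshold, and with the GC trend removed it also took miR-21a-3p, at -1.16, past it, as did DESeq2 at -1.92. The cause was not tested. Library numbers were checked for pairing. Deviations of same-numbered libraries correlated at 0.0377, 0.233 and 0.124, not all above 0.1. Each fibrinogen library correlated best with its own number, and so did untreated 2 and 3. Untreated 1 correlated best with fibrinogen 3, at 0.0876. These values leave undecided whether the libraries were paired, so the block is given as an alternative only. Log2 fold changes of all miRNAs had a median of 0.13 as reported and 0.0031 after median-of-ratios scaling, where miR-21a-5p was at -0.46.

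The number of miRNAs that rose, 13, was 8 without a filter, 7 at a minimum of 10 TPM, 1 with the GC trend removed, 25 with the replicate block as well, 8 with edgeR, 27 with DESeq2 and 0 (without fibrinogen 1) to 39 (without untreated 3) with 1 library left out. The number that fell, 4, was 1 with the GC trend removed, 15 with the replicate block as well, 1 among known miRNAs, 37 with DESeq2 and 0 (without untreated 1 or untreated 2) to 6 with 1 library left out. Signs that reversed were those of miR-421-3p (-0.064 with median-of-ratios scaling, -0.079 with edgeR, -0.074 with DESeq2, and -0.052, without fibrinogen 3, to 0.18 with 1 library left out), miR-132-3p (-0.054 with the GC trend removed, with or without the replicate block) and miR-34a-5p (-0.42 to 0.14 with 1 library left out, above 0 without fibrinogen 3). The settings that left out untreated 3 with DESeq2, library 3 of both groups in the block, or a library with reads as the measure were chosen after seeing the data. miR-21a-3p could not be tested at a minimum of 10 TPM. With 18 to 171 reads in a library, depth limits miR-21a-3p and not miR-21a-5p.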

Other observations

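Untreated 3 was compared with untreated 1 and 2 after the values had been seen, and no test was made. By its log2(TPM + 1) level in untreated 3 minus the mean of the other 2, miR-21a-3p was at 1.68, the second highest of 514 known miRNAs, where the median was 0.08. miR-21a-5p was at 0.36 and ranked 121 of them. The arm ratio of miR-21a in untreated 3 was 1.61 below the other 2 on the log2 scale (-1.61), the third lowest of 162 precursors.

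The 5 highest miRNAs by this measure were miR-455-3p at 1.85, miR-21a-3p, let-7d-3p and miR-1224-5p at 1.58 each, and miR-504-5p at 1.52. miR-455-3p, an arm known from cartilage, stood at 1.58, 1.43 and 8.02 TPM in untreated and at 5.002, 6.04 and 8.95 TPM in fibrinogen-treated OPCs. let-7d-3p, the passenger arm of a let-7 precursor, stood at 29.3, 18.8 and 72.3 TPM in untreated and at 46.7, 51.5 and 81.0 TPM in fibrinogen-treated OPCs. In both, untreated 3 was within the range of the fibrinogen-treated libraries.

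miR-1224-5p, which comes from a short intron, stood at 2.53, 1.26 and 7.42 TPM in untreated and at 6.87, 6.47 and 9.12 TPM in fibrinogen-treated OPCs. miR-504-5p stood at 3.09, 1.85 and 8.76 TPM in untreated and at 4.93, 5.82 and 8.06 TPM in fibrinogen-treated OPCs. These 4 miRNAs were also higher in each fibrinogen-treated library than in untreated 1 and 2, whereas miR-21a-3p was lower there, at 1.47 to 1.94 TPM.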
